A study of Brassica rapa with 6 samples.

Results

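Antisense transcripts are RNAs read from the strand opposite to an annotated gene, so that their exons overlap that gene's exons in the reverse orientation. In the assembled transcriptome of Chinese cabbage (Brassica rapa), 469 of 72949 linear transcripts (0.643%) carried the class code x, which marks exonic overlap with a gene on the other strand. Every one of the 469 was paired with the gene named in its own row, which lay on the opposite strand, and together they covered 310 sense genes. The libraries came from wild-type plants grown in a greenhouse, with 3 libraries of leaf and 3 libraries of petiole, the pale stalk that carries the green blade. The labels give no plant age or line, nor whether each library was made from its own plants, so p-values measure the spread between these samples only, which may be technical. Libraries were made from rRNA-depleted RNA with a strand-specific kit, which keeps transcripts without a poly(A) tail and records the strand of each fragment.

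Natural antisense transcripts are found at many plant genes. Pairs are grouped by geometry: tail to tail, where the 3′ ends overlap, head to head, where the 5′ ends overlap, and nested, where one lies within the other. Some Arabidopsis antisense RNAs take part in the control of their sense gene, through chromatin, small RNAs or transcription itself, as at FLOWERING LOCUS C. Others arise where a neighbouring gene is transcribed past its end.

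The libraries held 111518411 to 132861243 estimated counts each. The correlation of log2 CPM (counts scaled to a common library size) over all isoforms was 0.888 to 0.900 between libraries of 1 tissue and 0.753 to 0.762 between tissues. Over the antisense transcripts alone these correlations were 0.729 to 0.827 and 0.419 to 0.621. The tissues carried their labels' markers. The 31 genes for chlorophyll-binding proteins and the Rubisco small subunit summed to 14228 to 15010 CPM in leaf and 905 to 991 CPM in petiole. The 14 xylem and secondary wall genes summed to 96.6 to 113 CPM in leaf and 281 to 340 CPM in petiole, with 2 of them at 0 in every library. The 31 phloem genes, 8 of them at 0 throughout, summed to 761 to 834 CPM in leaf and 374 to 446 CPM in petiole, and the 8 guard cell genes, 1 of them at 0 throughout, to 19.7 to 23.3 and 0.617 to 1.46 CPM. These lists moved between the tissues in which the antisense transcripts below were compared, and their part in any single change was not tested. In such bulk tissue, fewer cells of a type and less RNA per cell cannot be told apart.

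The antisense transcripts were short and mostly spliced. Their median length was 448 bases (range 200 to 15620), against 936 bases for annotated isoforms and 733 bases for intergenic transcripts, and 152 were shorter than 300 bases. Of the 469, 37 had 1 exon, 267 (56.9%) had 2, 68 had 3 and 97 had 4 or more, up to 19. The strands were evenly used, with 238 transcripts on the plus and 231 on the minus strand. None of the 469 overlapped an annotated gene on its own strand, which follows at least in part from the class code, since overlaps on the sense strand carry other codes. Of the 469, 73 reached over more than 1 sense gene. The share of all transcripts that were antisense ran from 0.542% on chromosome A03 to 0.816% on chromosome A06. Most sense genes, 242 of 310, had a single antisense transcript, and 68 genes shared the other 227.

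By position, 167 antisense transcripts (35.6%) lay over the 3′ end of the sense gene, 124 (26.4%) lay inside it, 101 (21.5%) lay over its 5′ end and 77 (16.4%) reached across it from end to end. The median overlap of the spans, introns included, was 395 bases, but 66 transcripts (14.1%) touched their sense gene by at most 10 bases. The pairs with ubiquitin, GLO1, MYB44 and dnaJ 10 below are among those 66. Whether the counting of reads used strand is not given in the sources used here. All of the 58699 spliced transcripts of the assembly carry a strand, while 1231 of 1669 intergenic transcripts with 1 exon carry none. Reads from overlapping exons of an antisense transcript and its sense gene may therefore not have been told apart, and each value below has that limit.

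Levels were compared per length, as FPKM (fragments scaled by transcript length and library size), with the sense gene summed over all its sense-strand isoforms. The median antisense level was 1.28 FPKM in leaf and 1.81 FPKM in petiole. The median level of the sense genes was 5.99 FPKM in leaf and 9.45 FPKM in petiole, above the medians of 3.45 and 5.44 FPKM over all genes. Within pairs, the median antisense level was 28.4% of the sense level in leaf (375 pairs, quartiles 3.94% and 115%) and 25.1% in petiole (393 pairs, quartiles 4.30% and 113%). The antisense transcript was the higher member of the pair in 98 pairs in leaf and 105 in petiole, and in 77 pairs in both tissues. It stayed under 10% of the sense level in 125 pairs in leaf and 142 in petiole.

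The level differed with geometry. Antisense transcripts inside their sense gene had a median of 4.35% of the sense level in leaf and 5.80% in petiole. Those over the 5′ end stood at 21.5% and 19.6%, those over the 3′ end at 43.0% and 45.3%, and those spanning the whole gene at 58.9% and 73.2%. Calls of a tissue difference were also unevenly spread: 11 of 117 tested (9.40%) inside the gene, 25 of 97 (25.8%) over the 5′ end, 50 of 153 (32.7%) over the 3′ end and 24 of 76 (31.6%) across the gene. These are descriptions of the 4 classes, and no test of the difference among them was made. Transcripts are counted singly, so sense genes with several antisense transcripts weigh more in their class. Transcripts that touch their gene by at most 10 bases cannot lie inside it, and 25 of the 57 of these tested were called. The part of either in the spread of calls was not tested.

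**Figure D1:**
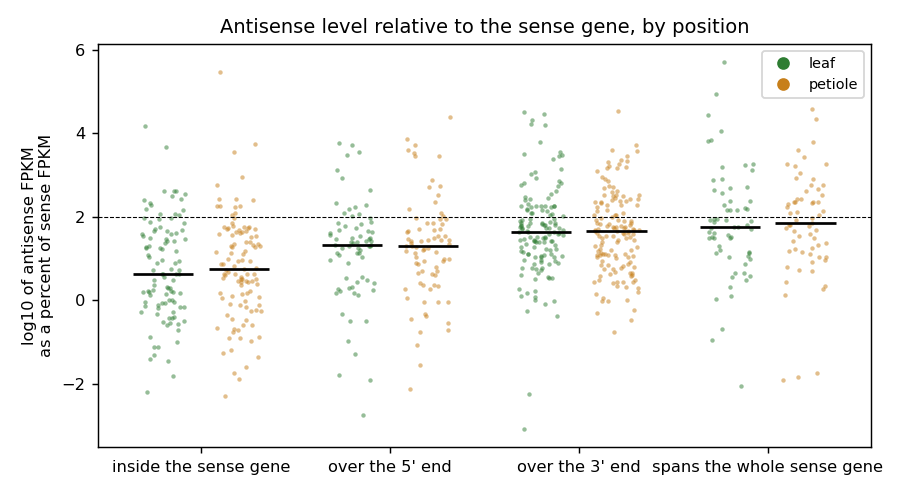
Log10 of the antisense level as a percent of the sense level (both in FPKM) by position relative to the sense gene, with leaf in green, petiole in orange, 1 point per pair with both values above 0, a bar at each median and a dashed line at equal levels. Medians are lowest for transcripts inside the gene, at 4.35% in leaf and 5.80% in petiole, and highest for transcripts that span it, at 58.9% and 73.2%.

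At least 1 count was found for 460 of the 469 in some library, for 270 in all 6 and for 33 in 1 library alone. The leaf libraries held 363, 374 and 356 antisense transcripts with a count and the petiole libraries 385, 387 and 391, so that the tissues did not overlap. The same count over transcripts of all classes is not given here, and whether the difference is particular to antisense transcripts was not tested. The means were 364 ± 9.07 (SD, n = 3) in leaf and 388 ± 3.06 (SD, n = 3) in petiole, and the two-sided exact permutation test gave p = 0.1, the smallest p that 3 against 3 libraries allow. Antisense transcripts took 1.14%, 1.40% and 1.01% of all counts in leaf and 0.577%, 1.72% and 1.55% in petiole. Here petiole library 1 lay below all 3 leaf libraries and the other petiole libraries above them.

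A few loci held most of that share. The gene BraA06g003700.3C, whose description names a hypothetical protein only, held 53.0% of all antisense counts, summed over 6 antisense transcripts: 597312, 485878 and 545148 counts in leaf and 147181, 1616233 and 1370732 in petiole. Its edgeR log2 fold change was 0.57 ± 0.83 (SE, adjusted p = 0.668), and petiole library 1 was the lowest of the 6. Listed counts of its overlapping isoforms differed widely within a tissue. MSTRG.15681.2 (chromosome A06, positions 2215882 to 2216838, 3 exons) was listed at 454891, 98 and 242372 in leaf and 146670, 1218866 and 1325087 in petiole. MSTRG.15681.7 was listed at 0, 485604 and 154336 in leaf and at 0 in petiole, and MSTRG.15681.1 at 142421, 0 and 148440 in leaf and 0, 397367 and 44255 in petiole. The second locus, BraA04g009260.3C, was nearly level, with 180237, 199627 and 195315 counts in leaf and 251202, 234262 and 220573 in petiole (log2 fold change -0.11, adjusted p = 0.0628), in a 2-exon transcript (MSTRG.11043.1) whose span runs from position 6757158 to 6828475 on chromosome A04. The third was a gene described as photosystem II CP43-like. With these 3 loci left out, a step chosen after seeing the data, the shares were 0.309%, 0.281% and 0.340% in leaf and 0.277%, 0.291% and 0.233% in petiole.

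**Figure D2:**
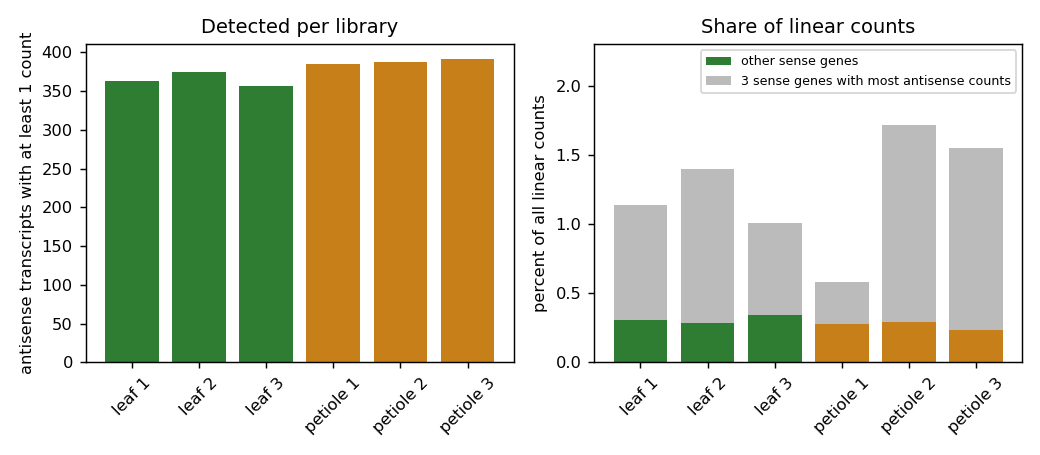
Antisense transcripts with at least 1 count (left) and the percent of all counts in antisense transcripts (right) for each of the 6 libraries, in green for leaf and orange for petiole, with the grey part of each right-hand bar for the 3 sense genes that hold most antisense counts. The 3 petiole libraries each hold more antisense transcripts (385 to 391) than any leaf library (356 to 374), while the share in petiole runs from 0.577% to 1.72% around the leaf range of 1.01% to 1.40%.

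Isoforms were compared between tissues with edgeR's quasi-likelihood test, and a transcript was called at a Benjamini-Hochberg adjusted p below 0.05 over all isoforms tested. Every log2 fold change is petiole minus leaf on TMM-normalised counts, while the counts printed are as deposited. Of the 469 antisense transcripts, 443 passed the minimum mean of 10 counts, and 110 (24.8%) of those were called, 51 higher and 59 lower in petiole. Calls were 25 of the 57 tested that overlap their sense gene by at most 10 bases, and 85 of the 386 with a longer overlap. Over all 52982 isoforms tested, 29.5% were called, 15.4% higher and 14.1% lower, against 11.5% and 13.3% of the antisense transcripts. The median log2 fold change was -0.01 over antisense transcripts and 0.03 over all isoforms. On the FPKM scale, log2(FPKM + 1), the median isoform stood 0.35 higher in petiole, and limma called 112 antisense transcripts higher and 52 lower, so the split between directions depends on the scale. Counts erratic within a tissue were frequent: 72 of 443 (16.3%) had a library at 0 beside a library with at least 100 counts of the same tissue, against 5.57% of annotated isoforms, 10.7% of intergenic transcripts, 13.7% of isoforms that share a junction with an annotated one and 17.5% of transcripts with another overlap on the sense strand.

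Some antisense transcripts were listed in every library of 1 tissue and in no library of the other. There were 26 of these among the 443 tested (5.87%), 15 at 0 in leaf and 11 at 0 in petiole, and the share over all isoforms was 2.69%. A count of 0 in the 3 libraries of a tissue allows up to 0.00947 CPM in leaf and 0.00713 CPM in petiole, taking 3 counts over the tissue as the floor, which covers counting error only.

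The sense genes were called about as often as all genes were. By the annotated isoform alone, 101 of 248 tested sense genes (40.7%) were called, 55 higher and 46 lower, and 38.5% of all genes were. By the sum of all sense-strand isoforms, 179 of 277 (64.6%) were called, 91 higher and 88 lower, against 63.5% of all genes.

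Where both members of a pair were called, they moved the same way in 75 of 78 pairs by the summed sense value. A sense gene said below to rise or fall passed the same edgeR test at an adjusted p below 0.05, and its value is that of the annotated isoform unless called summed. By the summed sense value, 78 of 396 testable pairs had both members called: 34 were higher in petiole, 41 were lower and 3 moved in opposite directions. By the annotated isoform, 47 of 358 pairs had both called, with 24 higher, 22 lower and 1 opposite. Of the 19 pairs both called with an overlap of at most 10 bases, 17 moved together, and so did 58 of the 59 with a longer overlap. Pairs are counted per antisense transcript, so a sense gene with several can enter more than once. The same count for other transcript classes is not given here, and whether such agreement is particular to antisense pairs was not tested. Across the 396 pairs the fold changes had Pearson's r = 0.37 and Spearman's rho = 0.57, as a description only, since both members come from the same libraries and may share reads. In 190 pairs the sense gene was called and the antisense transcript was not, and in 21 the reverse.

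**Figure D3:**
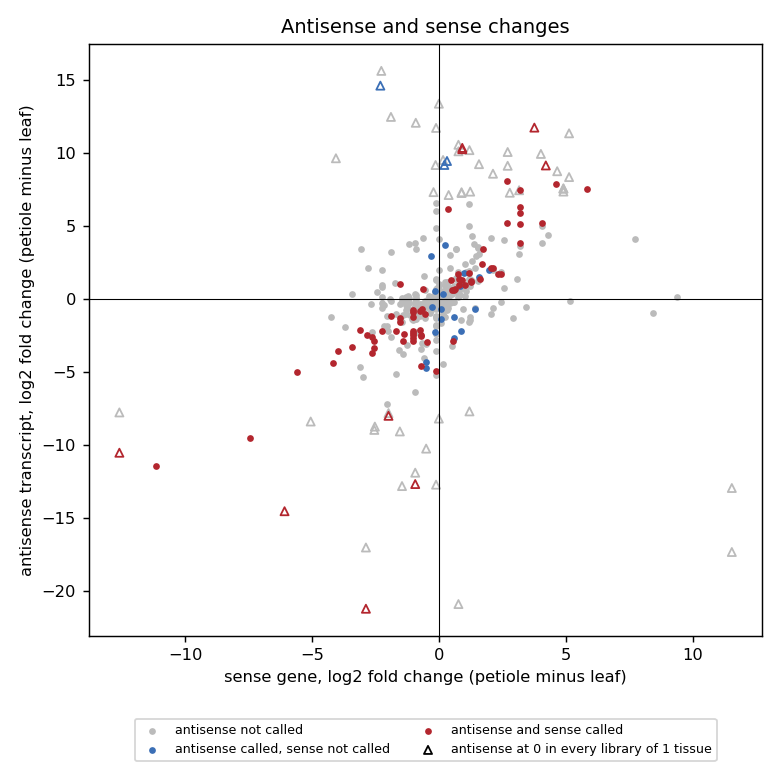
Log2 fold change (petiole minus leaf) of each antisense transcript against that of its sense gene, summed over sense-strand isoforms, with 1 mark per pair. Of the 78 pairs in red, with both called, 75 lie in the lower left or upper right quadrant; open triangles are antisense transcripts at 0 in every library of 1 tissue, whose fitted values depend on the prior count and are no bound.

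Among the pairs that fell together in petiole were genes of photosynthesis and photorespiration. The photosynthesis list held 4 antisense transcripts over 3 genes, of which 3 were lower and 1 was not called. The fitted median of the 4 was -13.26, and -11.86 with transcripts at 0 in a tissue set at their bound, against 0.03 over all isoforms. Of all isoforms tested, 29.5% were called. The 3 genes are Rubisco small chain F1, ferredoxin and CP43-like, the last with 2 of the 4 transcripts. Summed, those 2 had 173612, 665805 and 1564 counts in leaf and 0 in each petiole library, so the medians rest partly on uneven counts. MSTRG.11133.1, named next, is not on that list. Rubisco fixes carbon dioxide, and its small subunit comes from a family of nearly identical nuclear genes, so reads may be shared among copies. MSTRG.11133.1 (chromosome A04, positions 8696936 to 8697509, plus strand, 2 exons), over the 3′ end of a gene described as ribulose 1,5-bisphosphate carboxylase/oxygenase, had 27703, 37685 and 31903 counts in leaf and 1729, 2259 and 2145 in petiole. It fell by 4.38 ± 0.19 on the log2 scale (SE, edgeR adjusted p = 7.65e-05). Its sense gene BraA04g011050.3C went from 413196, 448454 and 395371 counts to 33105, 31635 and 29763, and fell by 4.20. In both members all leaf libraries stood far above all petiole libraries, and the antisense level was 12.3% of the sense level in leaf and 10.4% in petiole.

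A neighbouring pair behaved likewise. MSTRG.11130.1 (chromosome A04, positions 8655195 to 8663762, minus strand) overlaps the 3′ end of BraA04g010950.3C, the Rubisco small chain F1 gene. Its counts were 10117, 9177 and 10734 in leaf and 47, 0 and 9 in petiole, and the log2 fold change was -9.51 ± 1.52 (adjusted p = 0.00747). The sense isoform dropped from 85671, 110233 and 89629 counts to 991, 948 and 931, a log2 fold change of -7.10. Ferredoxin, which carries electrons away from photosystem I, had an antisense transcript spanning the whole gene (MSTRG.1926.1 over BraA01g028620.3C). It held 1968, 3383 and 2550 counts in leaf and 669, 603 and 621 in petiole, a fall of 2.46 ± 0.21 (adjusted p = 0.000714), and the sense gene fell by 2.85. This transcript and HAT7-like below lie outside the naming rule and were chosen after their values were seen.

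Peroxisomal GLO1 oxidises glycolate in photorespiration. A 1-exon transcript of 212 bases, MSTRG.2531.1, touches the 3′ end of BraA01g037290.3C by 4 bases (chromosome A01, positions 25350635 to 25350846). It had 3309, 3497 and 3325 counts in leaf and 97, 122 and 194 in petiole, and fell by 5.0 ± 0.36 (adjusted p = 0.00042). The sense gene fell by 5.61, from 10160, 9486 and 9657 counts to 256, 310 and 260. Per length the antisense transcript was the higher of the pair, at 180% of the sense level in leaf and 263% in petiole. With 1 exon, it has no splice junction that would set its strand.

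The CP43-like locus, over a gene named for an antenna protein of the photosystem II core that plastids encode, was less even. Its transcript MSTRG.17038.13 (BraA06g023040.3C, chromosome A06) had 173612, 621852 and 1564 counts in leaf and 0 in each petiole library. The leaf libraries thus differed widely among themselves. The call (adjusted p = 0.0435) was lost when any library but leaf replicate 3 was left out, with adjusted p from 0.0766 to 0.119. Reads of near-identical plastid copies cannot be told apart from reads of this locus.

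Further falls lay over a phylloplanin-like, a defensin-like and a virus-resistance gene, which share no list. Phylloplanins are antimicrobial proteins known from the leaf surface of tobacco. The antisense transcript over the 3′ end of the phylloplanin-like gene BraA01g035500.3C, MSTRG.2407.1, had 4945, 4603 and 3613 counts in leaf and 0, 6 and 0 in petiole (log2 fold change -11.41 ± 1.31, adjusted p = 0.00228). The sense gene changed by -11.13, from 87213, 88010 and 77052 counts to 45, 45 and 64. Plant defensins are small antimicrobial peptides. Over defensin-like protein 4 (BraA07g039320.3C), MSTRG.21335.1 spans the gene and had 4912, 2377 and 2229 counts in leaf and 519, 443 and 342 in petiole. It fell by 3.29 ± 0.40 (adjusted p = 0.00273) and its sense gene by 3.37, while the antisense level stayed at 1.26% and 1.33% of the sense level. On the list of glucosinolate and defence genes this was the only call among 2 tested of 3, and the other, over a TAO1-like resistance gene, had 67 counts in 1 petiole library alone. The fitted median of these 2 was 2.04, and 0.43 with the latter at its bound.

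A gene described as virus-resistance protein, BraA04g014860.3C, gave a pair in which the antisense transcript changed more than the gene. MSTRG.11385.1, over its 5′ end (chromosome A04, positions 11439448 to 11440163), had 3771, 2108 and 1695 counts in leaf and none in petiole, and was at least 3367-fold lower there (adjusted p = 0.00188). The sense gene kept 941, 683 and 758 counts in petiole, from 37019, 41848 and 38245 in leaf, and fell by 6.09. The within-library ratio of antisense to sense fell (limma adjusted p = 0.0118). Where a tissue is at 0, the fitted size of such a ratio depends on the prior count and is not printed.

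Further falls had weaker or less even support. Over a VAN3-binding protein-like gene, named for partners of a vein-patterning protein in Arabidopsis, MSTRG.29615.1 had 54, 171 and 249 counts in leaf and none in petiole, at least 209-fold lower (adjusted p = 0.0121, and 0.0529 without leaf replicate 2). Its sense gene BraA10g015870.3C had 801, 635 and 504 counts in leaf and 0 in all petiole libraries by the summed value. Extensins are cell wall glycoproteins, and 1 of 10 antisense transcripts within the extensin-2-like gene BraA04g030500.3C, MSTRG.12398.9, had 848, 1039 and 216 counts in leaf and none in petiole (at least 926-fold lower, adjusted p = 0.00816). The 10 together did not pass the test (log2 fold change -0.71, adjusted p = 0.0826). In a gene for a cell wall-plasma membrane linker protein, MSTRG.14117.11 had 78, 1697 and 527 counts in leaf and 25, 12 and 59 in petiole (-4.93 ± 1.35, adjusted p = 0.0448). That call was lost when any library but leaf replicate 1 was left out, with adjusted p from 0.0748 to 0.132.

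Pairs that rose together in petiole included genes of hormone metabolism. ILR1-like hydrolases release free auxin from its amino acid conjugates. MSTRG.29165.1 lies inside ILR1-like 6 (BraA10g007800.3C; chromosome A10, positions 5164684 to 5170775, minus strand, 3 exons) and had 0 counts in each leaf library and 471, 529 and 487 in petiole. It was at least 374-fold higher in petiole (adjusted p = 0.00128). The sense isoform rose by 3.16, from 190, 241 and 200 counts to 2156, 2344 and 3217, and the ratio of antisense to sense rose (limma adjusted p = 0.00853).

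ACC oxidase makes ethylene from its precursor. Inside ACC oxidase 1 (BraA07g001240.3C), MSTRG.18780.1 had 0, 0 and 2 counts in leaf and 197, 314 and 232 in petiole. The ratio of petiole to leaf was 280 (95% counting interval 77.2 to 2315), with an edgeR adjusted p of 0.00988. The sense isoform rose by 4.39, from 83, 125 and 121 counts to 3406, 3529 and 2605. Lipoxygenase 2 begins jasmonate synthesis in the chloroplast. The jasmonate list held 4 antisense transcripts, all over lipoxygenase 2-like genes, with 1 higher and 3 not called. Of all isoforms tested, 29.5% were called and 15.4% were higher. Their fitted median was 8.49, and 5.27 with transcripts at 0 in a tissue set at their bound. The 2 over BraA07g030990.3C summed to 0 counts in each leaf library and 711, 5 and 568 in petiole (edgeR adjusted p = 0.0745). These medians thus rest largely on uneven transcripts that were not called. The 1 called, MSTRG.20695.1 over BraA07g031010.3C, had 109, 91 and 54 counts in leaf and 719, 402 and 371 in petiole, a rise of 2.13 ± 0.43 (adjusted p = 0.0162, and 0.0537 without leaf replicate 2). Its sense gene rose by 2.12, from 3471, 4144 and 3674 counts to 23867, 23178 and 20725, so that the antisense level held at 11.2% and 10.9% of the sense level.

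DETOXIFICATION proteins are efflux carriers of the MATE family. Over DETOXIFICATION 36-like (BraA08g031490.3C), MSTRG.23728.1 had 0, 23 and 0 counts in leaf and 1988, 1736 and 2067 in petiole. The tissues did not overlap, and the log2 fold change was 7.59 ± 1.91 (adjusted p = 0.0347). The call was lost without any library but leaf replicate 2, with adjusted p from 0.058 to 0.0796. Its sense gene rose by 5.83. A gene described as pollen-specific SF21-like, BraA02g004130.3C, had 7 antisense transcripts. Summed, they had 11, 17 and 44 counts in leaf and 1451, 1194 and 1014 in petiole, a rise of 5.24 ± 0.64 (adjusted p = 0.00283). MSTRG.3332.1 rose by 5.94 and MSTRG.3333.3 by 6.31. MSTRG.3333.1, with 3 counts in all of leaf, had a ratio of petiole to leaf of 202 (95% counting interval 69.0 to 984). The summed sense value rose by 3.20.

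Just upstream of dnaJ 10, a co-chaperone of heat shock protein 70, MSTRG.21409.1 and MSTRG.21409.2 share a span that touches the 5′ end of BraA07g040290.3C by 2 bases. Both had 0 counts in every leaf library. In petiole the first had 139, 285 and 143 counts (at least 143-fold higher, adjusted p = 0.00636) and the second 151, 177 and 202 (at least 134-fold higher, adjusted p = 0.00402). The annotated dnaJ 10 isoform was hardly used, with 4 to 46 counts per library, while the summed sense value rose by 0.91. The ratio to that annotated isoform rose for both (limma adjusted p = 0.0153 and 0.0291). For the first it missed the threshold without leaf replicate 1 (0.0603) or 3 (0.0539), and for the second without any library but petiole replicate 3 (0.0507 to 0.0985). In another extensin-2-like gene, BraA05g003450.3C, MSTRG.12795.2 had 1 count in each leaf library and 238, 8 and 86 in petiole. The ratio of petiole to leaf was 83.4 (95% counting interval 28.3 to 406, edgeR adjusted p = 0.0253), and the call was lost without any library but petiole replicate 2, with adjusted p from 0.0573 to 0.0865.

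**Figure D4:**
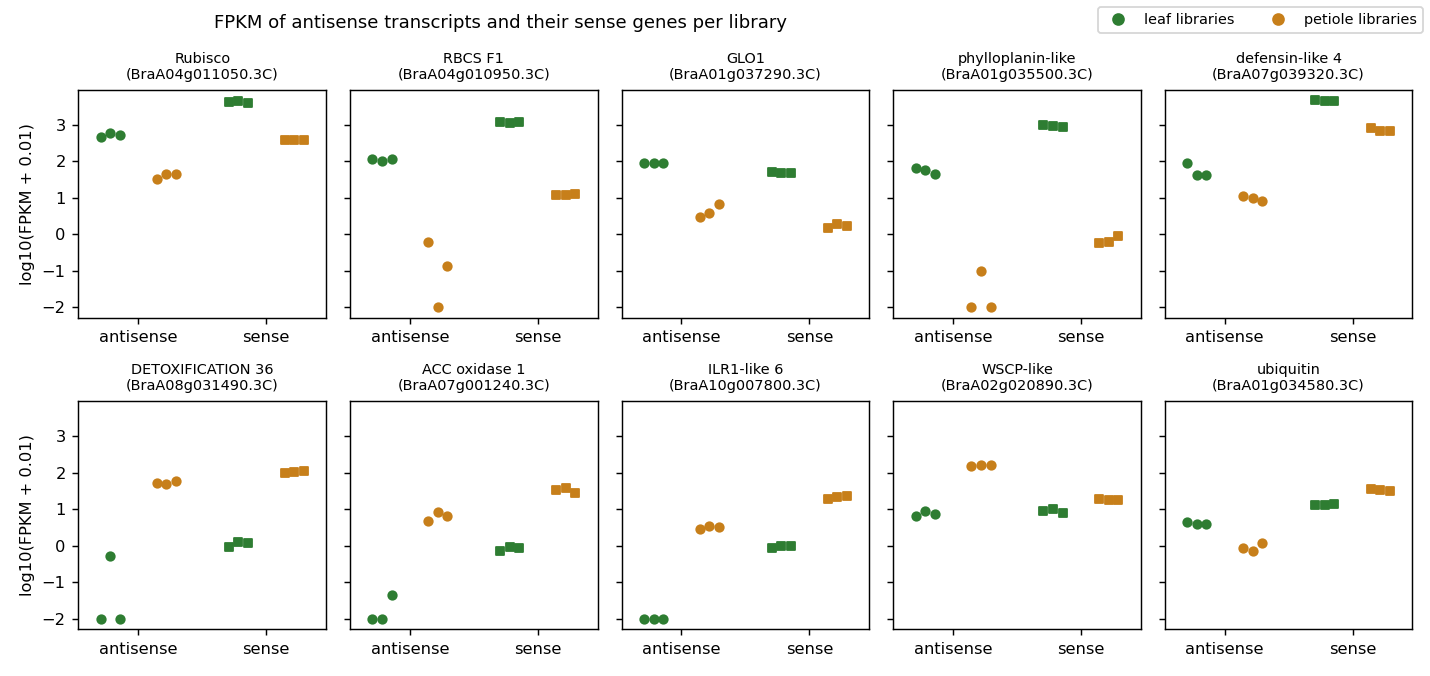
Log10(FPKM + 0.01) in each library of 10 antisense transcripts (circles) and of their sense genes, summed over sense-strand isoforms (squares), with leaf in green and petiole in orange; a value of -2 is a level of 0. In 8 pairs both members move the same way and were called, over WSCP-like the antisense transcript was called and the gene was not, and over ubiquitin the members move in opposite directions.

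Antisense transcripts over genes for transcription factors numbered 13 over 11 genes. Of the 11 tested, 3 were higher, 2 were lower and 6 were not called, with a median log2 fold change of 1.09. Over all isoforms, 15.4% were called higher and 14.1% lower. PHERES 1, a MADS-box factor, is known as an imprinted gene of the Arabidopsis seed. Both antisense transcripts across the PHERES 1-like gene BraA02g041130.3C rose: MSTRG.5700.1 went from 26, 10 and 61 counts to 1862, 1500 and 1520 (5.23 ± 0.76, adjusted p = 0.00527), and MSTRG.5701.1 from 0, 3 and 0 counts to 384, 484 and 349 (ratio 306, 95% counting interval 104 to 1484, adjusted p = 0.0106). The annotated isoform was at 0 in 5 of the 6 libraries and at 3 counts in the other, while the summed sense value, with isoforms that share a junction or overlap, rose by 2.66. HAT7 is a homeodomain-leucine zipper factor. MSTRG.30243.1 over the 3′ end of HAT7-like (BraA10g024200.3C) had 305, 377 and 308 counts in leaf and 1731, 1458 and 1238 in petiole, a rise of 1.75 ± 0.16 (adjusted p = 0.00111), and its sense gene rose by 2.43. Per length this antisense transcript was above the gene in both tissues, at 351% and 210%.

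The 2 that fell lay over ERF114 and MYB44. ERF114 is an ethylene response factor. MSTRG.17161.1 over the 3′ end of BraA06g025380.3C had 3750, 4031 and 3797 counts in leaf and 2224, 2262 and 2137 in petiole (-1.21 ± 0.07, adjusted p = 0.000174), while the gene itself had 37 counts in 1 leaf library and none elsewhere. MYB44 acts in abscisic acid and stress responses in Arabidopsis. MSTRG.129.5, with 13 exons, meets the 3′ end of BraA01g001590.3C by 4 bases and had 8529, 9829 and 7990 counts in leaf and 7627, 7410 and 6640 in petiole; its edgeR log2 fold change was -0.69 (adjusted p = 0.00195), but it was 0.01 on the log2(FPKM + 1) scale. MYB44 itself changed by 0.06 (adjusted p = 0.325).

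Of 12 antisense transcripts over genes with kinase in their description, 1 was higher, 3 were lower and 8 were not called, with a median of -0.52. With so few members, the counts are not set apart from the 29.5% called over all isoforms. The riser was a 1-exon transcript of 6076 bases, MSTRG.5659.1, inside the Nek3-like gene BraA02g040520.3C, a NIMA-related kinase. Its counts went from 986, 847 and 800 to 6219, 4790 and 4740 (2.17 ± 0.14, adjusted p = 0.000285). The sense isoform went from 946, 785 and 862 to 5468, 6072 and 6542 and rose by 2.34, so both strands were close in count and change; with 1 exon, this transcript has no splice junction that would set its strand. Receptor-like kinase CRK11 (BraA01g013520.3C) had 2 that fell. MSTRG.1016.1 had 239, 365 and 172 counts in leaf and 76, 29 and 38 in petiole (-2.86 ± 0.53, adjusted p = 0.0129), and MSTRG.1017.1 changed by -1.22 (adjusted p = 0.0331, and 0.0542 to 0.0938 with any 1 library left out). The third lay over phosphatidylinositol 4-kinase gamma 7, named for phosphorylation of a lipid, and changed by -0.88 (adjusted p = 0.00187).

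The remaining lists held few members, since they were matched by words in the description. The membrane transport list (transporter, aquaporin, channel, antiporter, ATPase) held 5, of which none of the 4 tested was called (median -0.81). It does not hold the carriers named by family, and 3 antisense transcripts over those were called: over DETOXIFICATION 36-like above, over NRT1/PTR family 5.16 below and MSTRG.20638.1 over NRT1/PTR family 2.13-like (-2.20, adjusted p = 0.0162). How many such carriers were tested is not given here, and 29.5% of all isoforms were called. Antisense sums over WAT1-related At5g45370 and mitochondrial phosphate carrier protein 3 were not called (edgeR adjusted p = 0.177 and 0.455). Both antisense transcripts over ABC transporter G family member 37 missed the threshold singly (adjusted p = 0.0745 and 0.085) and passed it summed (-1.25, adjusted p = 0.0283). The cell wall list, made of wall enzymes such as expansins and pectinesterases, held 2, and the 1 tested was not called (2.15). Structural wall proteins such as the extensins above are not on it, nor are galacturonosyltransferases, which make pectin. Summed per gene, antisense transcripts rose over the pectin gene galacturonosyltransferase 9 (1.16 ± 0.09, adjusted p = 0.00052) and over extensin-3-like BraA07g015270.3C (2.62 ± 0.39, adjusted p = 0.00582). By the same summed edgeR test, those over galacturonosyltransferase-like 3 and 6 were not called (adjusted p = 0.600 and 0.166). Nor were those over extensin-3 (BraA06g016760.3C, adjusted p = 0.134) or the extensin-2-like genes BraA05g003450.3C (0.39, adjusted p = 0.300) and BraA04g030500.3C (-0.71, adjusted p = 0.0826). The genes outside these lists were chosen after their values were seen. No antisense transcript lay over a gene described as a ribosomal protein. Of loci with a known antisense RNA in Arabidopsis, only cyclic dof factor 5 was represented, which was also the only member of the clock and flowering list. CDF5 represses flowering in Arabidopsis, where an antisense RNA named FLORE is transcribed from it. MSTRG.20947.1 over the 3′ end of CDF5-like (BraA07g034480.3C; chromosome A07, positions 24485922 to 24486412, plus strand) had 54, 167 and 83 counts in leaf and 63, 14 and 68 in petiole, and the tissues overlapped (-1.45 ± 0.79, adjusted p = 0.236). CDF5-like itself had 418, 611 and 918 counts in leaf and 1619, 1325 and 1849 in petiole (0.84, adjusted p = 0.0901).

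A ratio of antisense to sense within each library was tested to find pairs whose members moved by different amounts. Of 358 antisense transcripts with a testable annotated isoform, 9 (2.51%) over 8 genes were called, 6 higher and 3 lower in petiole, and 1.59% of all 19154 non-reference transcripts tested were. At an unadjusted p under 0.05 there were 53. With the sense value summed over all sense-strand isoforms, 23 of 396 were called, 12 higher and 11 lower. For these 23 and for the 53, the share over all non-reference transcripts is not given here. Neither count therefore says whether antisense ratios differed more often than others. The virus-resistance, ILR1-like 6 and dnaJ 10 pairs above account for 4 of the 9.

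The 1 pair whose annotated isoform and antisense transcript were called in opposite directions was over ubiquitin, the small protein that marks others for degradation. MSTRG.2335.1 has 2 exons and 2392 bases and meets the 3′ end of BraA01g034580.3C by 4 bases (chromosome A01, positions 23677920 to 23681524, plus strand). It had 1814, 1728 and 1632 counts in leaf and 320, 241 and 375 in petiole and fell by 2.87 ± 0.22 (adjusted p = 0.000581). The ubiquitin isoform had 1300, 1342 and 1439 counts in leaf and 3273, 2477 and 2511 in petiole and rose by 0.55 (adjusted p = 0.0107). The ratio fell by 3.49 (limma adjusted p = 0.0414), and missed the threshold without any 1 of the 6 libraries, with adjusted p from 0.0699 to 0.118.

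The other 4 ratio calls, and the 2 other opposite pairs by the summed sense value, lie outside the naming rule and were chosen after their values were seen. WSCP proteins bind chlorophyll and inhibit proteases in the cabbage family. Over the 3′ end of WSCP-like BraA02g020890.3C, MSTRG.4494.1 had 516, 715 and 607 counts in leaf and 10973, 10488 and 10269 in petiole and rose by 3.71 ± 0.12 (adjusted p = 3.47e-05). The gene itself had 1084, 1246 and 971 counts in leaf and 1972, 1771 and 1667 in petiole and changed by 0.25 (adjusted p = 0.136), so that per length the antisense transcript went from 83.3% to 880% of the sense level. The ratio of antisense to sense rose by 3.40 (limma adjusted p = 0.0368, and 0.0818 to 0.109 with any 1 library left out). Under MSTRG.6560.1 the reverse held: the antisense transcript had 265, 286 and 252 counts in leaf and 337, 329 and 335 in petiole (-0.09, adjusted p = 0.808), while its sense gene BraA03g007390.3C, which has no protein name, rose by 5.16, and the ratio fell by 5.27 (limma adjusted p = 0.0146, and 0.0545 without leaf replicate 1). MSTRG.28446.1 over the uncharacterized BraA09g063640.3C had 0 in leaf and 95, 73 and 134 counts in petiole, with a ratio that rose (limma adjusted p = 0.00993) and a sense gene that changed by 0.31 (adjusted p = 0.51). MSTRG.11043.2, which meets the gene for the mitochondrial open reading frame orf293 (BraA04g009240.3C) by 9 bases, had 0 in leaf and 2256, 5029 and 3575 counts in petiole. Its ratio rose (limma adjusted p = 0.00949), the gene had 9 to 87 counts per library, and reads of mitochondrial copies cannot be told apart from this locus.

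Both other opposite pairs had antisense transcripts that rose over genes whose summed sense value fell. MSTRG.26796.1, with 5 exons, over the 3′ end of the NRT1/PTR family transporter gene BraA09g040490.3C, had 1426, 1500 and 1281 counts in leaf and 3276, 3145 and 2624 in petiole (0.69 ± 0.10, adjusted p = 0.0051). The summed sense value changed by -0.65 (adjusted p = 0.00854). MSTRG.29601.1, with 1 exon and so no splice junction to set its strand, changed by 1.04 (adjusted p = 0.0424) beside the uncharacterized BraA10g015670.3C, whose summed value changed by -1.56.

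A further antisense transcript was high where the annotated isoform of its sense gene was barely detected. MSTRG.9025.1 spans BraA03g042680.3C, a gene of 231 bases without a description (chromosome A03, positions 21427729 to 21429235), and had 1933, 2388 and 1973 counts in leaf and 32906, 30630 and 28267 in petiole. It rose by 3.46 ± 0.08 (adjusted p = 1.72e-05), and the annotated isoform had 1 or 2 counts per library. MSTRG.21868.2, whose sense level is not given here, was among the 8 of highest mean FPKM. It had 23023, 0 and 3159 counts in leaf and 13611, 0 and 0 in petiole, so that libraries of both tissues were at 0.

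Genes with many antisense transcripts were led by the linker protein gene BraA05g025150.3C with 19, an uncharacterized gene BraA06g002280.3C with 11, BraA04g030500.3C with 10, and a proline-rich protein gene BraA03g040080.3C and SF21-like BraA02g004130.3C with 7 each. Of the single transcripts tested, 1 of 19, 1 of 10, 1 of 10 and 0 of 7 were called over the first 4 genes and 5 of 6 over SF21-like, against 24.8% of all antisense transcripts tested. Summed per gene, BraA06g002280.3C had 1835, 1565 and 2120 counts in leaf and 6142, 6443 and 4987 in petiole and rose by 1.26 ± 0.16 (adjusted p = 0.00295). The linker protein gene's antisense sum did not pass the test (-0.21 ± 0.28, adjusted p = 0.629). Over all sense genes, 92 of 289 summed antisense loci were called, 46 higher and 46 lower in petiole, a summation chosen after seeing the data. The share called over all isoforms, tested singly, was 29.5%.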

How the data were processed

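Leaf and petiole libraries (3 each, grouped by title) were compared. The authors deposited estimated counts and FPKM values per transcript, per the file headers; the estimated counts are whole numbers, and FPKM entries of 0.0001, held where the count is 0, were set to 0. The submitters' processing notes list HISAT2, StringTie and TopHat. Their versions and roles, the use of strand in counting and the genome build were not given in the sources used here; coordinates follow the deposited table. Antisense transcripts are its class code x. Gene values are sums of annotated isoforms or, where stated, of all sense-strand isoforms.

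All isoforms, all genes and all ratios (prior count 0.5) with a mean of at least 10 counts were fitted with edgeR 4.0.16 (TMM, quasi-likelihood) or, for ratios, limma 3.58.1, in R 4.3.3, with Benjamini-Hochberg adjustment over the whole table; DESeq2 1.42.0 was an alternative. Exact permutation tests and counting intervals (exact binomial, 95%) used SciPy 1.17.1 in Python 3.11.15. The fits were tested on simulated data.

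The members and lists were chosen with earlier results of these data known. Named were the 10 largest rises and falls among called transcripts without overlap between tissues, with a mean of at least 50 counts and a sense gene with a protein name; the 8 of highest FPKM; up to 5 pairs each way that were called in the ratio and also had both members called in opposite directions; up to 2 called rises and falls per list; and loci with antisense RNAs known in Arabidopsis. Totals per library are in the report; floors and intervals cover counting error only.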

Additional observations from a re-analysis of the deposited data

How the results depend on the processing

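With DESeq2's Wald test 195 antisense transcripts were called (92 higher, 103 lower) against 110, and limma called 164 on log2(FPKM + 1) and 159 (107 higher, 52 lower) on log2(FPKM + 0.1), where the median isoform moved by 0.63. Leaving out 1 library gave 88 to 99 antisense calls, 97 to 105 sense gene calls and 6 to 10 ratio calls. Summing all sense-strand isoforms gave 179 sense gene calls and 23 ratio calls (12 higher, 11 lower). The replicate numbers do not pair the libraries: deviations of same-numbered libraries correlated at -0.01, -0.00 and 0.02. With the replicate number as a block, 64 antisense transcripts (25 higher, 39 lower), 90 sense genes and 0 ratios (50 at an unadjusted p under 0.05) were called. The tissue difference in detected antisense transcripts, 23.3, ran from 19.2 to 28.2 with 1 library left out. The difference in their share of counts, 0.102 percentage points, had no stable sign: -0.0558 without the 10 most abundant transcripts, -0.043 without the 3 leading loci, and -0.116 to 0.454 with 1 library left out (-0.116 without petiole replicate 2, -0.0327 without petiole replicate 3). On the log2 FPKM scales with pseudocounts 1 and 0.1, the MYB44 antisense transcript changed by 0.00951 and 0.0102, and the sense gene BraA05g025150.3C, at -0.12 by counts, by 0.632 and 0.633. The cause of these shifts was not tested. Depth limits transcripts near the minimum of 10 counts.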
